A study of Mus musculus with 3 samples.

Results

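The 10 genes described here were chosen by name from the 31053 genes of the count tables. They are Crem with its testis cofactor Fhl5, the spermatid factors Rfx2, Sox30 and Sox5, the testis forms of general transcription factors Tbpl1, Gtf2a1l and Taf7l, and the meiotic factors Mybl1 and Tcfl5. All 10 were found in the tables of the 3 libraries. Testicular cells of adult C57BL/6 mice were profiled by droplet single-cell RNA-seq, with 1 library for each genotype. The WT library came from wild-type mice. The KO library came from knockout mice that lack GRTH/DDX25, an RNA helicase of male germ cells. The KI library came from mice that carry a human GRTH gene with the R242H mutation and lack the phosphorylated form of the protein. The labels give an age of 8 weeks and separate preparations from WT, KO and KI mice, and the study's methods describe testes pooled within each group. Each genotype was therefore 1 sample, no difference between genotypes could be tested across animals, and every interval given is an exact 95% interval for counting error only. Where 3 values of a gene stand in a row without names, they belong to WT, KO and KI in that order.

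CREM is a transcription factor that binds cyclic AMP response elements (CRE). In the testis its production switches from repressor forms to an activator, and mice without it stop at the early round spermatid. In germ cells the activator works with FHL5 (also called ACT), a LIM-only coactivator, and with general transcription factors that have testis forms: TBPL1 (TRF2) resembles the TATA-binding protein, GTF2A1L (ALF) resembles the large subunit of TFIIA, and TAF7L resembles TAF7 of TFIID. RFX2 binds X-box elements of ciliary and spermatid genes, SOX30 and SOX5 are HMG-box factors, MYBL1 (A-MYB) drives pachytene transcription, and TCFL5 is a helix-loop-helix factor of spermatocytes. The counts are per gene from 3' reads, so activator and repressor forms of Crem cannot be told apart.

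By the GENCODE M21 annotation of GRCm38, the build of the mm10 counts, the members lie on 9 chromosomes. Fhl5 lies at chr4:25199908-25242876, Sox5 at chr6:143828425-144781977, Sox30 at chr11:45980310-46017994 and Tcfl5 at chr2:180621956-180642708. Rfx2 at chr17:56775897-56831013 and Gtf2a1l at chr17:88668660-88715152 share chromosome 17. Tbpl1 lies at chr10:22703879-22731938, Mybl1 at chr1:9667415-9700209 and Taf7l, the X-linked member, at chrX:134460118-134476490. Crem is annotated with 39 transcripts, against 14 for Sox5 and 1 for Sox30. Sox5 overlaps Sox5it and Gm44068 on its own strand, so reads of these genes may be shared. On the other strand, Tbpl1 overlaps Slc2a12, Tcfl5 overlaps Col9a3, Crem overlaps Gm6225 and Fhl5 overlaps Gm11906.

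RefSeq promoter windows of build GRCm38.p6 were at hand for 8 members: Fhl5, Rfx2, Sox30, Sox5, Tbpl1, Gtf2a1l, Taf7l and Tcfl5. The 250 bases before the annotated start were searched on both strands for short core sequences of the factors named here. The MYB core AACGG was present in 3 of the 8 (Rfx2, Sox30 and Tcfl5), against 14.5% of all 32851 windows. The CRE core TGACG was present in 1 (Rfx2), against 17.8%, and the full CRE TGACGTCA in 0, against 1.55%. The SOX core ACAAT was present in 4 (Fhl5, Sox30, Sox5 and Taf7l), against 27.7%, the X-box core GTTGCC in 3 (Rfx2, Sox5 and Gtf2a1l), against 10.4%, and the E-box CACGTG in 1 (Taf7l), against 6.02%. A member counted if any of its windows matched, while the shares are of single windows. The windows with the MYB core are shown 5′ to 3′ along the gene, as an example. A-MYB is itself a member, but so are factors of the SOX and X-box cores, held by 4 and 3 members, whose windows are not shown. Capitals mark AACGG or its complement CCGTT, the latter being the same core read on the other strand, and a CCGTT of Rfx2 overlaps its GTTGCC. A match of letters is a description, not a binding site.
Rfx2, chr17:56831009-56831258, minus strand: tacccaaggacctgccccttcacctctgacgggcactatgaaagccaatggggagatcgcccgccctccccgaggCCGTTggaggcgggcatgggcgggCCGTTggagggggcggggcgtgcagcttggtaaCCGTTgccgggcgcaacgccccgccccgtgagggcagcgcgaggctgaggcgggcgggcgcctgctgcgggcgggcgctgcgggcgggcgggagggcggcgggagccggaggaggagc
Tcfl5, chr2:180642692-180642941, minus strand: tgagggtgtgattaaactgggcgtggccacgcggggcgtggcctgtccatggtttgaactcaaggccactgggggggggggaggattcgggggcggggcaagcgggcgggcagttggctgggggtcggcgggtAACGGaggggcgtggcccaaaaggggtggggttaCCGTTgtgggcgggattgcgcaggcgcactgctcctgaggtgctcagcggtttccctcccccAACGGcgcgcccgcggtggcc
Sox30, chr11:45980060-45980309, plus strand: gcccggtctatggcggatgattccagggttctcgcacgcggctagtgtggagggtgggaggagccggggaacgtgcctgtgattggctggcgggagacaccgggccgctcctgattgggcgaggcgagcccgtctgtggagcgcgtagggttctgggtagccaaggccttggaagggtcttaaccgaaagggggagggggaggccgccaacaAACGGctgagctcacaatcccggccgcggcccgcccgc

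Rfx2 and Tcfl5 each held 3 copies of the MYB core in these windows and Sox30 held 1. The first bases of the copies lay 175, 151 and 118 bases before the start in Rfx2, at 117, 83 and 21 in Tcfl5 and at 38 in Sox30.

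The raw tables held 73150373 to 91388296 unique molecular identifiers (UMIs, counted transcripts) per library, and 5859 WT, 4062 KO and 1573 KI cells were kept, with medians of 5134, 3978 and 11735 UMIs per cell. WT cells had a median mitochondrial share of 0.0583% of UMIs, against 1.64% for the KO and 1.32% for the KI library. This difference runs with every comparison of a mutant with WT, and its part in the ratios was not tested. The libraries shared 8 to 37 cell barcodes in pairs. Ddx25, the targeted gene, was at 129.6 CPM (UMIs of a gene scaled to a common total) in all WT cells. It was at 0.279 CPM in all KO cells and 96.2 CPM in all KI cells. The loss in KO goes with its label, and no label gives a level for KI. By the classes named below, Ddx25 was at 211 CPM in WT and 97.7 in KI for spermatocyte-like cells. For round spermatid-like cells it was at 98.2 CPM in WT and 119.5 in KI. The counts were aligned to the mouse genome mm10, and how reads of the human gene of KI were counted was not tested. Cells were clustered without the members and list genes, and clusters were named by markers as spermatocyte-like (SP-like), round spermatid-like (RS-like), elongated spermatid-like (ES-like) or early SP-like. The germ cell clusters were ordered by marker levels in WT after these were seen. Cluster 12 held Sycp1 at 2079 CPM, cluster 6 the highest Calm2 at 2387 and cluster 11 the highest Aurka at 392. Cluster 1 held both Aurka at 209.8 and the acrosomal gene Acrv1 at 326, and Acrv1 was at 1101 in cluster 7, 2401 in cluster 3 and 637 in cluster 8. Tssk6 was at 1632 in cluster 2 and 3859 in cluster 4. Clusters 6, 11, 1 and 9 were SP-like, 7, 3 and 8 RS-like, and 2 and 4 ES-like. Cluster 9 was led by mitochondrial genes and was left out of the order. Clusters 3 and 7 held small cells, with median UMIs per cell of 0.278 and 0.564 relative to the library median. Cluster 4 held 1164 WT, 10 KO and 3 KI cells, and no mutant value is given for it.

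Free RNA was present in all libraries. In barcodes without a cell, Crem was at 399.5, 329 and 326 CPM, and Fhl5 at 421, 341 and 439. In Sertoli-like cells, where expression of these genes was not separated from free RNA, Crem was at 226, 210.2 and 165 CPM. Fhl5 was at 99.9, 141 and 389 CPM there. The median Sertoli-like cell held 1296 to 1639 UMIs. In the large cells of cluster 6, with median totals of 29862 to 78907 UMIs, Fhl5 was at 6.26, 6.55 and 3.38 CPM.

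Taf7l and Mybl1 were high first in WT. Taf7l, the TAF7 paralogue on the X chromosome, was at 205 (95% interval 180 to 234) CPM in early SP-like cluster 12 and at 0.398 CPM in cluster 6, where 4 UMIs were counted. It was seen again at 11.2 CPM in cluster 1, 26.9 in cluster 7 and 9.96 in cluster 8. The KO and KI libraries had the same course over these clusters, with 0.873 and 0.297 CPM in cluster 6 and 19.6 and 24.4 in cluster 7. In cluster 12 they were above the WT interval, at 327 (297.5 to 357.8) CPM in KO and 344 (315 to 375) in KI. Cluster 12 of WT also held RNA of Sertoli markers, with Ctsl at 280 and Clu at 223 CPM, against 8.95 and 3.58 in cluster 6. No level of these markers is given for cluster 12 of KO and KI, and their part in the Taf7l values was not tested. At the finer clustering, a cluster with spermatogonial markers, whose cells came from cluster 12, held Taf7l at 303, 312 and 360.2 CPM. A cluster with early spermatocyte markers held it at 98.98, 202 and 173 CPM. The latter had 109 WT, 125 KO and 76 KI cells, of which 79, 98 and 56 came from cluster 12. These values are therefore not a split of cluster 12 alone. Mybl1 had the reverse order, with 16.5, 39.6 and 20.5 CPM in the finer cluster with spermatogonial markers. In the one with early spermatocyte markers it was at 156, 161 and 178 CPM. Mybl1 stayed at 121 CPM in cluster 6 and 109 in cluster 11, and was at 26.6 in cluster 1 and 3.36 in cluster 8.

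Tcfl5, Rfx2, Tbpl1 and Gtf2a1l were highest in SP-like clusters. In WT, Tcfl5 was at 234 CPM in cluster 12, 565 (95% interval 551 to 580.3) in cluster 6, 513 in cluster 11 and 193 in cluster 8. It did not go to low values later and was at 173 CPM in cluster 4. Rfx2 was at 128 (95% interval 121 to 135) CPM in cluster 6 and 129 (95% interval 117 to 142) in cluster 11, values whose intervals overlapped, and at 32.5 in cluster 8. Tbpl1 was at 176 CPM in cluster 12, 614 in cluster 6, 1162 (95% interval 1125 to 1198) in cluster 11, 909 in cluster 1 and 231 in cluster 7. Gtf2a1l followed the same order, with 31.6, 184, 304, 273 and 129.8 CPM. The 2 testis forms of the preinitiation machinery thus had their highest values in the same cluster 11 in WT, KO and KI, and both were at or below 35.9 CPM in cluster 2 of WT.

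Crem was present before the spermatid stage. In WT it was at 154 CPM in cluster 12, 197 in cluster 6, 244 in cluster 11, 496 in cluster 1, 553 (95% interval 504 to 607) in cluster 7, 559 (95% interval 517 to 603) in cluster 3 and 411 in cluster 8. The values of clusters 7 and 3 did not differ beyond counting error. Both clusters held small cells, and free RNA of WT carried Crem at 399.5 and Sox5 at 264 CPM. Crem then was at 65.4 CPM in cluster 2 and 84.6 in cluster 4. Sox5 had its highest values in the same clusters but a sharper start, from 8.31 (95% interval 5.52 to 12.01) CPM in cluster 11 to 226 in cluster 1 and 522 (95% interval 473 to 574) in cluster 7. It was at 39.2 CPM in cluster 2.

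Fhl5, which encodes the coactivator, came later than Crem. In WT it was at 6.26 CPM in cluster 6, 7.12 in cluster 11, 69.99 in cluster 1, 113 in cluster 7, 423 in cluster 3 and 831 (95% interval 812 to 851) in cluster 8. The cells of cluster 3 were small, and 423 CPM was near the free-RNA level of 421 in WT, so this step is uncertain. In cluster 2, where Crem was low, Fhl5 was still at 469 (95% interval 457 to 482) CPM, and it was at 54.5 in cluster 4. Sox30 was seen from cluster 12 on, at 112 CPM there, 72.4 in cluster 11, 166 in cluster 7, 189 (95% interval 179.8 to 198) in cluster 8 and 14.97 in cluster 4. Its values in clusters 3 and 8 did not differ beyond counting error.

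**Figure D1:**
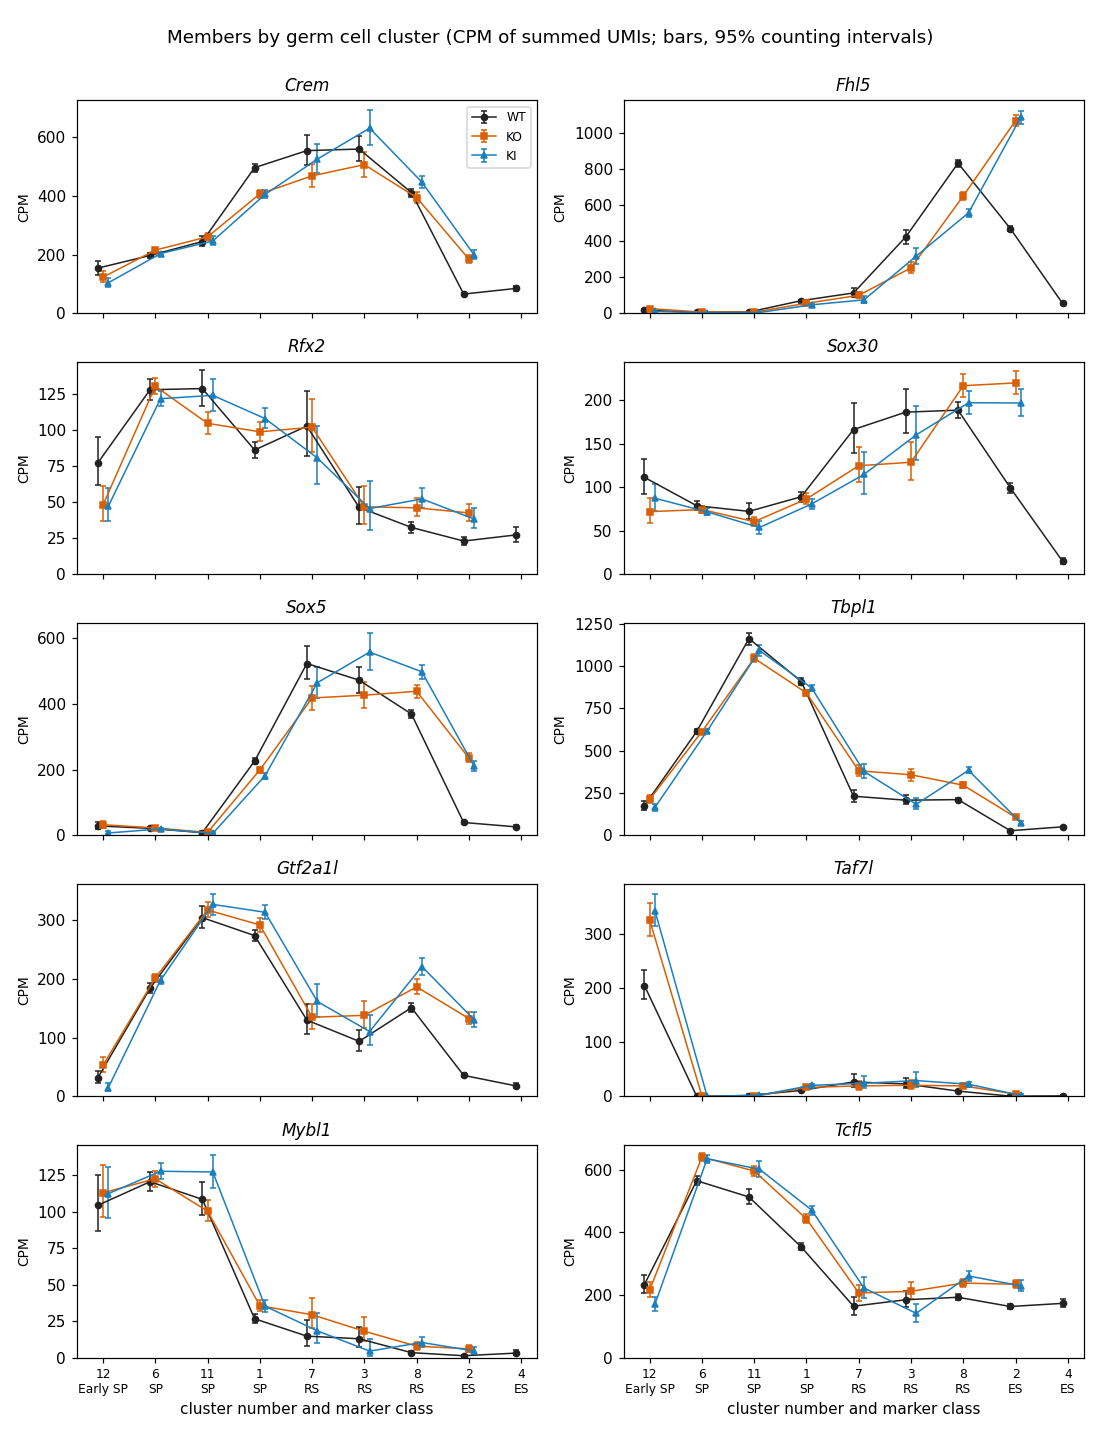
Level of each member (CPM of summed UMIs, vertical axes from 0) in the germ cell clusters in marker order (horizontal axis) for WT, KO and KI, with 95% counting intervals; cluster 4 is drawn for WT alone. Tbpl1 and Gtf2a1l were highest in cluster 11, Crem in clusters 7 and 3, and Fhl5 of WT in cluster 8 at 831 CPM, while Fhl5 of KO and KI was highest in cluster 2 at 1066 and 1085 CPM.

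Over whole classes in WT, RS-like cells were compared with SP-like cells. A gene was called where its CPM differed by at least 2-fold, among genes with a mean of at least 10 CPM. Of the 9 members past this minimum, 3 were called higher in RS-like cells, against 27.5% of all genes tested, and 4 lower, against 39.4%. The ratios here are log2 of CPM with 1 added. Fhl5 was higher by 4.32 (4.22 to 4.42), from 35.6 to 731 CPM. Sox5 was higher by 1.83 (1.76 to 1.91) and Sox30 by 1.16 (1.07 to 1.25). Mybl1, Tbpl1, Rfx2 and Tcfl5 were lower, with ratios of -3.65 (-3.99 to -3.33), -1.94 (-2.00 to -1.87), -1.46 (-1.60 to -1.31) and -1.28 (-1.35 to -1.21). Crem, at 335 CPM in SP-like and 438 in RS-like cells, had a ratio of 0.39 (0.34 to 0.44) and Gtf2a1l of -0.74 (-0.82 to -0.66), and neither was called. Some calls were lost under alternatives: that of Tbpl1 without integration, at -0.64, that of Rfx2 in thinned cells, at -0.94, and that of Sox30 without integration, at 0.92, and in thinned cells, at 0.98. Taf7l was under the minimum, at 5.30 and 12.7 CPM. The median of the 9 members was -0.74 and that of all genes tested -0.55. Counts of this size were near the background share, which is high here.

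Cluster 1 held marker RNA of both spermatocytes and spermatids. At the finer clustering, 420 of its WT cells went to a subcluster with SP markers (Ccna1 261, Acrv1 192 CPM) and 303 to one with RS markers (Ccna1 130.5, Acrv1 503 CPM). The subcluster with RS markers had 347 WT, 281 KO and 124 KI cells in all, of which 303, 253 and 109 came from cluster 1. Values of the subclusters are of all their cells, so they are not a split of cluster 1 alone. The coactivator gene and Sox5 were higher in the subcluster with RS markers in each library. Fhl5 went from 15.3 to 163 CPM in WT, with 15.1 to 114 CPM for KO and 8.91 to 110.3 CPM for KI. Sox5 went from 115 to 367 CPM in WT, with 89.5 to 328 CPM for KO and 84.5 to 312 CPM for KI. The meiotic factor Mybl1 was lower there. It went from 40.1 to 11.1 CPM in WT, with 51.8 to 17.8 CPM for KO and 50.6 to 17.4 CPM for KI. Crem changed less, from 422 to 579.6 CPM in WT, with 367 to 448 CPM for KO and 361 to 462 CPM for KI. In log2 units, Fhl5 was higher in the later subcluster by 3.33 (3.01 to 3.66) for WT, 2.83 (2.47 to 3.22) for KO and 3.49 (3.04 to 3.97) for KI, and Sox5 by 1.67, 1.86 and 1.87. The direction of each of the 10 members was the same in the 3 libraries, which were clustered together. The share of all genes with 1 direction was not counted, so nothing is read from this. Taf7l of KO rested on 65 and 87 UMIs. Gtf2a1l of KI, at -0.129, was near the median gene at -0.134.

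**Figure D2:**
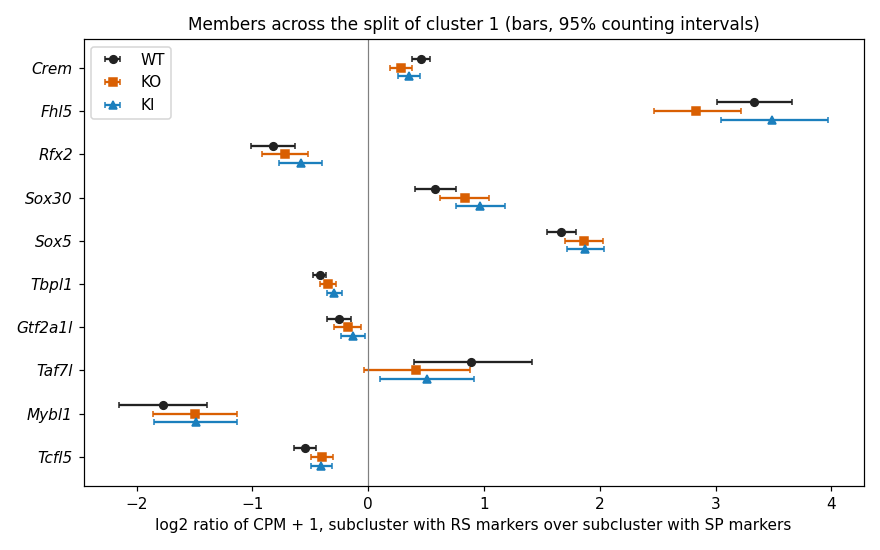
Log2 ratio of each member (rows) between the finer clusters with RS and with SP markers, for WT, KO and KI, with 95% counting intervals. Cells of cluster 1 went to both, and the one with RS markers also held cells of other clusters. Fhl5 lies at 3.33, 2.83 and 3.49 and Mybl1 at -1.77, -1.49 and -1.49 in WT, KO and KI.

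Shares of cells with a UMI were set side by side after thinning each cell to 2000 UMIs. In WT, Fhl5 was detected in 0.968% (0.2 to 2.80) of cluster 6 cells, 9.71% (7.65 to 12.1) of cluster 1 cells and 72.8% (68.3 to 76.8) of cluster 8 cells, and in 19.8% (12.2 to 29.4) of Sertoli-like cells. Without thinning these shares were 16.8%, 37.3%, 98.4% and 19.9%. The Sertoli-like cells were far smaller than those of clusters 6 and 1 and cannot serve as their background, since Fhl5 in cluster 6 lay far below the Sertoli-like share. Crem was detected in 36.5% (31.1 to 42.1) of cluster 6, 60.5% (56.8 to 64.1) of cluster 1, 55.9% (51.1 to 60.5) of cluster 8 and 12.4% (10.5 to 14.6) of cluster 2 cells, with 28.6% (19.6 to 39.00) of Sertoli-like cells. Unthinned, its shares in these clusters were 97.7%, 96.7%, 94.2% and 42.8%, against 36.9%. Thinning left out 115 of 206 Sertoli-like, 0 of 310 cluster 6 and 44 of 1083 cluster 2 cells of WT.

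In the SP-like clusters before cluster 1, the named members differed little between genotypes. In cluster 11, Tbpl1 was at 1162, 1046 and 1092 CPM, Crem at 244, 260.2 and 246 CPM and Mybl1 at 109, 100.5 and 127 CPM. In cluster 6, Tcfl5 was at 565, 641 and 636 CPM and Rfx2 at 128, 130.4 and 122 CPM. In the small early SP-like cluster 12, Sox5 and Gtf2a1l were past 2-fold lower in KI, as were 510 of 9361 genes there. Sox5 had 33 UMIs in WT and 11 in KI, with a ratio of -1.83 (-2.78 to -0.90), and Gtf2a1l had 36 and 22, with a ratio of -1.04 (-1.81 to -0.28). Sox5 was at 28.97 CPM in WT and 7.41 in KI, with free RNA at 264 and 269 CPM. Gtf2a1l was at 31.6 and 14.8 CPM, with free RNA at 187 and 221. The part of free RNA in these calls was not tested. Over all SP-like cells, 0 of 9 members past the minimum were called in KO, against 0.119% of genes higher and 1.78% lower, and the ratios ran from -0.73 to 0.31. In KI, 0 were called higher and 1 lower, against 0.226% and 2.65%. The member called was Fhl5, at 35.6 CPM (WT, 33.3 to 38.05), 21.1 CPM (KO, 19.6 to 22.7) and 16.6 CPM (KI, 15.2 to 18.1). Its KO ratio was -0.73 (-0.87 to -0.59) and its KI ratio -1.05 (-1.21 to -0.90), and Sox5 had ratios of -0.69 (-0.77 to -0.61) and -0.71 (-0.80 to -0.63). Both genes were counted mainly in cluster 1. Within cluster 1, Fhl5 was at 69.99, 55.5 and 46.9 CPM and Sox5 at 226, 199 and 181 CPM, and in its subcluster with SP markers Fhl5 was at 15.3, 15.1 and 8.91 CPM. With the SP-like clusters weighted as in WT, the ratios were -0.30 and -0.63 for Fhl5 and -0.15 and -0.31 for Sox5. In each library Fhl5 of SP-like cells was below 10% of its level in barcodes without a cell, and subtracting that share of the profile took it to 0. The Fhl5 call of KI was lost in 7 of the 14 alternatives, that subtraction among them. In 2 of the 7, a minimum mean of 50 CPM and no integration, the ratio stayed past 2-fold and the gene was under the minimum.

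In RS-like cells no member past the minimum was called in either mutant: 0 of 9 higher in KO, against 10.9% of genes, 0 lower, against 3.78%, and in KI 0 higher, against 10.1%, and 0 lower, against 5.8%. The median gene was 0.31 higher in both mutants, and that of the members 0.24 in KO and 0.35 in KI. Crem was at 438 CPM (WT, 425 to 451), 425 CPM (KO, 409.5 to 440.4) and 478 CPM (KI, 461 to 496), and its KO ratio was -0.04 (-0.11 to 0.02) and its KI ratio 0.13 (0.06 to 0.20). Sox30 was at 187, 186 and 182 CPM, with intervals of both ratios that included 0, but TMM put its ratios at -0.43 and -0.44, and leaving out integration at 0.21 and 0.08. Over the 9 members past the minimum, the ratios in RS-like cells ran from -0.58 to 0.60 in KO and from -0.66 to 0.85 in KI, and Mybl1, under the minimum, had ratios of 1.19 and 0.91. TMM scaling, which centres the bulk of genes, put the KO and KI ratios of Crem at -0.47 and -0.27, of Sox5 at -0.29 and -0.05, of Tcfl5 at -0.16 and -0.05 and of Gtf2a1l at -0.18 and 0.08. No direction is given for these genes, since the scaling decided the sign in at least 1 mutant.

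Fhl5 was the member furthest below WT in RS-like cells. It was at 731 CPM (WT, 715 to 748), 489 CPM (KO, 472 to 505) and 461 CPM (KI, 444 to 479), which gave ratios of -0.58 (-0.64 to -0.52) in KO and -0.66 (-0.73 to -0.60) in KI. Against the median of all genes these were -0.89 and -0.98, and with TMM -1.01 and -1.06. Within each RS-like cluster both mutants were below WT in CPM, at 113, 99.6 and 74.6 CPM in cluster 7, 423, 252 and 316 CPM in cluster 3 and 831, 649.6 and 556 CPM in cluster 8. Counted per cell in cluster 8, Fhl5 was at 15.99, 13.76 and 25.25 UMIs, so KI was above WT. The mean cell there held 19240, 21180 and 45410 UMIs. In cluster 7 the intervals of KO (82.7 to 119) and KI (57.0 to 95.8) overlapped that of WT (90.8 to 138). In the small cells of cluster 3 the values lay near or below the free-RNA levels of 421, 341 and 439 CPM. The part of free RNA was not tested for this cluster. After thinning, Fhl5 was detected in 55.4% (51.9 to 58.9) of RS-like cells from WT, 39.03% (35.3 to 42.9) from KO and 39.3% (33.7 to 45.02) from KI, against 19.8% (12.2 to 29.4), 23.8% (15.9 to 33.3) and 25.7% (12.5 to 43.3) of Sertoli-like cells. Unthinned, the RS-like shares were 58.5%, 40.02% and 57.05%. Thinning left out 570, 601 and 137 RS-like cells of WT, KO and KI. Without integration of the libraries the direction turned, to 0.32 in KO and 0.14 in KI. RS-like cells then took in most mutant cells of cluster 2, 345 of 375 in KO and 126 of 134 in KI, and 36 of 1083 in WT.

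In cluster 8, 7 of the 9 members past the minimum were above WT in KO and 8 in KI. The median of all genes was itself 0.28 and 0.31 above WT there, so nothing is read from these counts. Tbpl1 was at 212 CPM (WT, 202 to 222), 296 CPM (KO, 281 to 313) and 384 CPM (KI, 366 to 403) in cluster 8, with ratios of 0.48 (0.38 to 0.59) and 0.86 (0.76 to 0.95). Taf7l was at 9.96, 19.6 and 22.7 CPM and Mybl1 at 3.36, 7.83 and 10.3 CPM, the latter from 29, 36 and 45 UMIs. Over all RS-like cells the ratios of Tbpl1 were 0.59 and 0.76, which TMM put at 0.17 and 0.36 and which turned to -0.32 and -0.11 without integration. Free RNA carried Tbpl1 at 500.3, 642 and 536 CPM, and with 10% of that profile subtracted the RS-like ratios of Tbpl1 were 0.66 and 0.91. Sertoli-like cells held Tbpl1 at 573, 648 and 582 CPM, not below the free-RNA level in any library, so these values do not give the share of free RNA. The share of free RNA in small cells was not measured, so the subtraction cannot settle the part of free RNA in the RS-like ratios.

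**Figure D3:**
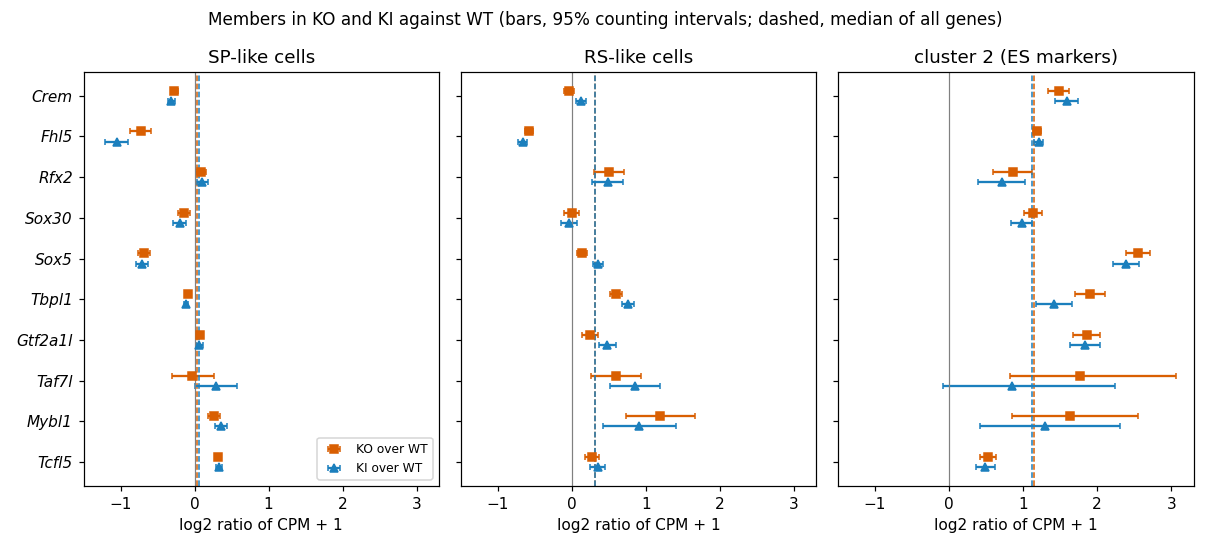
Log2 ratio of each member (rows) in KO and in KI against WT in SP-like cells, RS-like cells and cluster 2, with 95% counting intervals and the median of all genes as dashed lines. In RS-like cells Fhl5 lies at -0.58 and -0.66, and in cluster 2 the median gene lies at 1.15 and 1.12, with Sox5 at 2.55 and 2.39.

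Cluster 2, named by ES markers, was where the members differed most among the 3 comparisons with WT. It held 1083 WT, 375 KO and 134 KI cells, and its mutant cells held more RS and less ES marker RNA. The 8 RS markers summed to 734 CPM in WT cells, 3854 in KO cells and 3757 in KI cells, and 8 of 8 were higher in both mutants, while the 7 ES markers summed to 6834, 3764 and 3926 CPM. Stage within the cluster and genotype cannot be told apart here. Of 8 members past the minimum, 6 were called higher in KO, against 54.9% of genes, and 5 in KI, against 53.5%. Of these 8, 0 were called lower, against 3.98% and 3.5%. The median of all genes was higher by 1.15 in KO and 1.12 in KI, and that of the members by 1.33 and 1.31.

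Sox5 stood furthest above that median. It was at 39.2 CPM (WT, 35.6 to 43.04), 235 CPM (KO, 221 to 249) and 209.8 CPM (KI, 194 to 226) in cluster 2, with ratios of 2.55 (2.39 to 2.71) and 2.39 (2.21 to 2.57), or 1.40 and 1.27 above the median gene. Crem was at 65.4 CPM (WT, 60.8 to 70.3), 184 CPM (KO, 172 to 197) and 199 CPM (KI, 183 to 215), which was 0.33 and 0.47 above the median gene. Gtf2a1l, at 35.9, 132 and 130.5 CPM, was 0.70 and 0.72 above it, and Tbpl1, at 27.8, 107 and 75.8 CPM, 0.75 and 0.30. Tcfl5, at 163, 234 and 229 CPM, and Rfx2, at 23.1, 42.6 and 38.4 CPM, had ratios below the median gene, and TMM turned their direction against WT, to -0.85 and -0.72 for Tcfl5 and -0.48 and -0.47 for Rfx2. Sox30 turned too, to -0.23 in KO and in KI. With TMM the counts of members called higher became 1 in KO and 1 in KI, with Sox5 at 1.20 and 1.19.

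Fhl5 in cluster 2 was at 469 CPM (WT, 457 to 482), 1066 CPM (KO, 1037 to 1095) and 1085 CPM (KI, 1049 to 1122). The mutant values were above WT on this scale but equal to the median gene within 0.03 and 0.09, and TMM put the ratios at -0.19 and -0.01. Counted per cell, a measure added after seeing the data, Fhl5 was at 4.89 UMIs per cell in WT, 13.9 in KO and 25.3 in KI, and Sox5 at 0.409, 3.06 and 4.90. Cells of cluster 2 held a mean of 10430, 13010 and 23330 UMIs but a median of 8522, 4593 and 5418, so the mutant means were raised by some large cells and the median mutant cell was smaller than the median WT cell. Thinned to 2000 UMIs, Fhl5 was detected in 49.9% (46.8 to 52.9) of its WT cells, 80.8% (75.7 to 85.2) of its KO cells and 79.8% (71.3 to 86.8) of its KI cells, and Sox5 in 7.32% (5.81 to 9.07), 35.3% (29.8 to 41.2) and 34.2% (25.6 to 43.7). Sertoli-like cells of the same libraries had Sox5 in 6.59% (2.46 to 13.8), 18.8% (11.7 to 27.8) and 8.57% (1.80 to 23.1) after thinning at median depths of 1639, 1511.5 and 1296 UMIs. The Sox5 share of WT cluster 2 lay within the interval of WT Sertoli-like cells. Those cells were smaller, with medians of 1639 against 8522 UMIs in WT, and cannot serve as the background of cluster 2. Unthinned, the shares were 82.6%, 86.7% and 90.3% for Fhl5 and 28.4%, 60.00% and 62.7% for Sox5. At the finer clustering, the earlier part of cluster 2 held 331 WT, 303 KO and 108 KI cells. There Fhl5 was at 855, 1084 and 1098 CPM, Crem at 82.3, 185 and 199, and Sox5 at 54.1, 239 and 214 in WT, KO and KI. Stage markers still differed there, with Acrv1 at 36.6, 479 and 449 CPM while Tssk6 was lower in the mutants, with 1456, 801 and 765 CPM, so the finer part did not match the genotypes for stage.

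Set beside the RS-like cluster 8 of WT, the mutant values of Crem, Sox5, Tbpl1, Gtf2a1l and Taf7l in cluster 2 lay between its level and that of cluster 2 in WT. Crem was at 411 CPM in WT cluster 8, 184 in KO and 199 in KI cluster 2 and 65.4 in WT cluster 2. Sox5 was at 368, 235, 209.8 and 39.2 CPM in the same order, and Gtf2a1l at 151, 132, 130.5 and 35.9. Fhl5 was above both WT clusters in the mutants, at 1066 and 1085 against 831 and 469 CPM, and Sox30 was at 220.1 (95% interval 207 to 234) in KO and 197 (95% interval 182 to 213) in KI against 189 (95% interval 179.8 to 198) and 99.5 CPM. The KI interval of Sox30 overlapped that of WT cluster 8. Rfx2, at 42.6 in KO and 38.4 in KI against 32.5 and 23.1 CPM, Tcfl5, at 234 and 229 against 193 and 163 CPM, and Mybl1, at 5.94 and 4.48 against 3.36 and 1.24 CPM, were also above both WT clusters. The KI interval of Rfx2 and both mutant intervals of Mybl1 overlapped those of WT cluster 8.

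**Figure D4:**
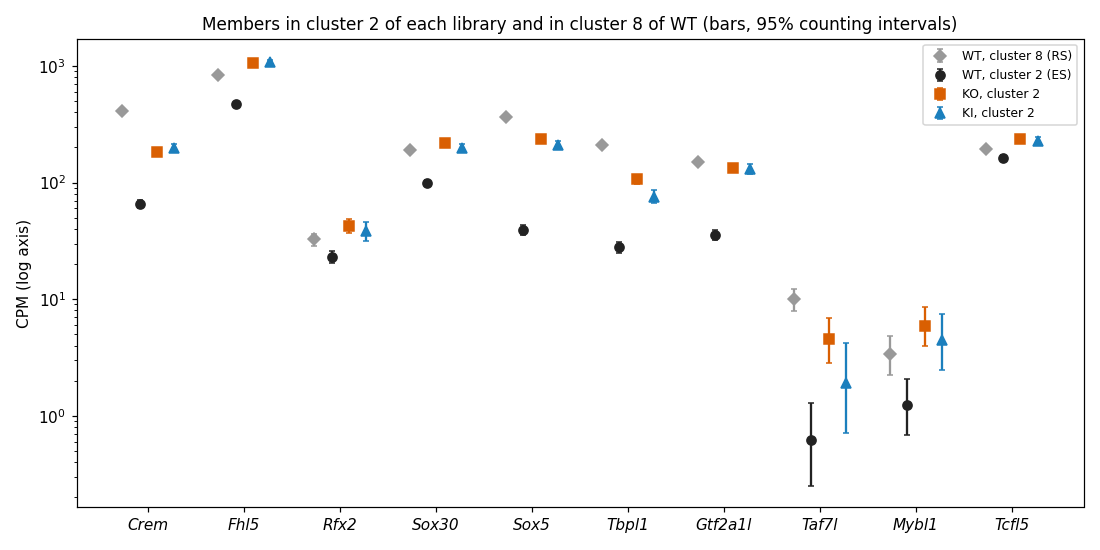
Level of each member (CPM, log axis) in cluster 2 of WT, KO and KI and in RS-like cluster 8 of WT, with 95% counting intervals. Crem, Sox5, Tbpl1 and Gtf2a1l of KO and KI lie between the WT clusters, and Fhl5 of KO and KI, at 1066 and 1085 CPM, lies above both.

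KI was also compared directly with KO, since both were read against the same WT library above. Among members past the minimum, the ratios of KI over KO ran from -0.33 to 0.10 in SP-like cells, -0.28 to 0.25 in RS-like cells and -0.49 to 0.11 in cluster 2. Tbpl1 in cluster 2 had the lowest of these, at -0.49 (-0.71 to -0.26). Taf7l, under the minimum in cluster 2, had a ratio of -0.92 (-1.75 to 0.09) from 6 UMIs in KI and 22 in KO.

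Of the 10 listed CREM targets, 8 were at least 2-fold higher in RS-like than in SP-like cells of WT, against 27.5% of all genes, and 0 lower, against 39.4%, with a median ratio of 3.23. In RS-like cells 4 of 10 were called lower in KO, against 3.78% of all genes, and 4 of 10 in KI, against 5.8%, and in both mutants these were Tnp1, Tnp2, Prm1 and Prm2, which encode the transition proteins and protamines that replace histones. Prm1 was at 21010, 2994 and 1683 CPM, with free RNA at 19540, 6039 and 8221 CPM. Tnp2 was at 10900, 2314 and 1366 CPM, with free RNA at 8455, 3615 and 4986. The free RNA of both genes was lower in the mutants too. With 10% of the free-RNA profile subtracted, the RS-like ratios of Prm1 were -2.99 in KO and -4.47 in KI, against -2.81 and -3.64 without. Without integration, RS-like cells took in 345 of the 375 KO, 126 of the 134 KI and 36 of the 1083 WT cells of cluster 2. In that cluster Prm1 was at 26510 CPM in KO and 28360 in KI, above the RS-like values. No ratio of the targets is given without integration, and the part of stage in these calls was not tested. Apart from Tnp1, Tnp2, Prm1 and Prm2, the targets had ratios between -0.72 and 0.40 in RS-like cells of KI. Ace, the gene of angiotensin-converting enzyme, whose isoforms are counted together, was at 295, 308 and 321 CPM, Camk4, a calcium-dependent kinase, at 216, 184 and 186, and Ldhc, the germ cell lactate dehydrogenase, at 5158, 5458 and 5437. In cluster 2 the 4 called lower in KO and KI were again Tnp1, Tnp2, Prm1 and Prm2, against 3.98% and 3.5% of all genes. Prm1 was at 130600, 26510 and 28360 CPM there. Acr, which encodes the acrosomal protease acrosin, was called higher, at 23.2, 184 and 170.5 CPM, as were 54.9% and 53.5% of all genes. TMM put the Acr ratios at 1.59 in KO and 1.635 in KI, against 2.94 and 2.83 without. With TMM more targets passed 2-fold lower. Odf1 did so in RS-like cells, at -1.09 in KO and -1.11 in KI. In cluster 2 Smcp (-2.28 and -1.98), Odf1 (-1.91 and -1.92) and Camk4 (-1.01 and -1.10) did so beside the protamine and transition protein genes, so the number of targets called lower depended on the scaling. In SP-like cells 6 of 9 were called lower in each mutant, against 1.78% of all genes in KO and 2.65% in KI, Prm1 among them at 1157, 142 and 56.9 CPM. These SP-like levels of Prm1, and those of Tnp1 and Tnp2, were below 10% of their free-RNA levels in each library, and subtracting 10% of that profile left the 3 genes at 0 and ended their calls. It also took Prm2 to 0 in both mutants and Smcp to 0 in KI and near 0 in KO, so no ratio is given for these. Odf1 stayed past 2-fold lower over the whole class, at -1.56 and -1.90. Within cluster 1 it was not past 2-fold, at 155.8, 104.5 and 95.9 CPM. In cluster 6 it was at 39.6, 6.68 and 2.55 CPM, with free RNA at 369.8, 159 and 170.3. The SP-like class had 1336, 1644 and 576 cells, with 724, 612 and 272 from cluster 1. No target ratio is given with the SP-like clusters weighted as in WT, and the part of the cluster mix was not tested.

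Of the 9 listed cofactors and relatives of CREM, 6 passed the minimum in WT, and 1, Kif17, was called higher in RS-like cells, against 27.5% of all genes. KIF17, the kinesin that moves the FHL5 protein out of the nucleus, had its gene at 24.3 CPM in SP-like and 62.7 in RS-like cells of WT. In RS-like cells Kif17 was at 76.5 CPM in KO and 79.2 in KI. Fhl4, another LIM-only gene of the testis, was at 1062 CPM in SP-like and 564 in RS-like cells of WT, with ratios of 0.23 and 0.40 in mutant RS-like cells. Fhl1, Fhl2 and Fhl3 did not pass the minimum. No gene of the list was called in mutant SP-like or RS-like cells. Of all genes, 0.119% were called higher and 1.78% lower in SP-like cells of KO and 0.226% and 2.65% in those of KI, and in RS-like cells 10.9% and 3.78% in KO and 10.1% and 5.8% in KI, so nothing is read from the absence of calls in so short a list. The widest ratios of the list in RS-like cells were those of Crebbp, at 0.86 and 0.91.

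Of the 8 listed general factors beside which the testis forms stand, 6 passed the minimum, and of these 4 (Tbp, Gtf2a1, Taf7 and Taf3) were called lower in RS-like cells of WT, against 39.4% of all genes, and 1, Taf4b, higher, against 27.5%. Tbp was at 109 CPM in SP-like and 14.4 in RS-like cells, a ratio of -2.83 (-3.06 to -2.61), against -1.94 (-2.00 to -1.87) for Tbpl1. Gtf2a2, the small TFIIA subunit, was at 395 and 441 CPM. In mutant RS-like cells 2 were called higher in KO, Tbp and Gtf2a1, against 10.9% of all genes, and 2 in KI, Tbp and Taf3, against 10.1%, while Gtf2a2 had ratios of -0.82 (-0.90 to -0.74) and -0.72 (-0.80 to -0.64). The median gene was itself 0.31 higher in both mutants, and no TMM value is given for the calls of Tbp, Gtf2a1 and Taf3. Taf1 and Taf4 did not pass the minimum.

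Of the 5 RFX and SOX relatives, 4 passed the minimum in WT and Rfx1 was called higher in RS-like cells, at 1.18 (0.98 to 1.38), where Rfx2 was lower and 27.5% of all genes were called higher. In mutant RS-like cells, of those past the minimum, 0 were called, against 10.9% of all genes higher and 3.78% lower in KO and 10.1% and 5.8% in KI. In cluster 2, Sox6, a partner of SOX5 in other tissues, was at 20.9, 108 and 111 CPM, and 3 of 4 were called higher in each mutant. Of the 6 MYB relatives and A-MYB targets, 3 of 4 past the minimum (Piwil1, Mov10l1 and Pld6, genes of the piRNA pathway) were called lower in RS-like cells of WT, as Mybl1 was, against 39.4% of all genes. SP-like cells held Piwil1 at 328, 311 and 364 CPM, and no gene of this list was called in mutant SP-like cells. In RS-like cells Pld6 was called higher in KO, as were 10.9% of all genes, at 6.41 CPM in WT and 14.3 in KO. Its ratio of 1.04 (0.62 to 1.49) was just past 2-fold.

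In cluster 2 the other lists were read against the same shares of 54.9% and 53.5% of all genes called higher. Past the minimum, 2 of 5 cofactors were called higher in KO and 2 of 5 in KI, 2 of 2 and 2 of 2 general factors, and 2 of 2 and 1 of 1 MYB relatives and A-MYB targets. Taf7, the paralogue of Taf7l, was among the general factors called higher, at 1.77, 35.04 and 31.99 CPM.

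The genes with patterns most like each member were found over 29 sums of a germ cell cluster and a library. These sums share libraries and stages, so Pearson's r is a description. Nearest to Crem were Fam186a (r = 0.93) and Itgad (0.93), to Fhl5 1700100L14Rik (r = 0.99) and Scp2d1 (0.99) and to Sox5 Acrv1 (r = 0.98) and Amotl1 (0.98). Sox5 thus ran closest to Acrv1, an acrosomal gene. Nearest to Tbpl1 were Gkap1 (r = 0.99) and 1110004E09Rik (0.99), to Gtf2a1l Gk2 (r = 0.97) and Gm9748 (0.97) and to Mybl1 Ttk (r = 0.98) and Gtf2h1 (0.98). Nearest to Tcfl5 were Tcte2 (r = 0.95) and Zkscan17 (0.95), to Rfx2 Fam160b1 (r = 0.96) and Setd1b (0.96), to Taf7l Huwe1 (r = 0.94) and Vma21 (0.93) and to Sox30 Ndfip2 (r = 0.90) and Pex3 (0.88). Of the genes nearest to Taf7l, Huwe1 and Vma21 lie on the X chromosome like Taf7l itself.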

How the data were processed

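Testicular cells of WT, KO and KI mice were profiled with 1 droplet library each. The authors deposited raw gene counts (UMIs, before cell calling), aligned to mm10. The submitters' processing notes name Cell Ranger 2.1.1 and the file headers Cell Ranger 4, and both versions are given because they differ. The tables held every barcode, so cells were called here: an expected number of 3000, then a test of smaller barcodes against the empty profile at a false discovery rate of 0.01. Barcodes passed when over 500 genes were detected and mitochondrial genes gave less than 10% of UMIs (5859 WT, 4062 KO and 1573 KI cells). Libraries were integrated with Seurat 5.3.0 (sctransform 0.4.2) on 2000 genes without the members or the listed genes and 100 components, and clustered at a resolution of 0.3 (leidenalg 0.10.2) into 15 clusters, which were named from marker lists. Doublets were kept in the main analysis and removed in an alternative (275, 132 and 20 cells of WT, KO and KI). UMIs were summed by class or cluster and library and scaled to CPM, and ratios are log2 of CPM with 1 added. Genes with a mean of at least 10 CPM over both sums were tested for a 2-fold difference. With 1 library per genotype there was no test and no p-value, and exact 95% Poisson and binomial intervals cover counting error only. The calling of 2-fold differences was checked on simulated counts.

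The members and lists were chosen with earlier results of these data known. The named genes were all members, the nearest genes by Pearson's r over germ cell sums of at least 20000 UMIs, and the genes of 5 lists (CREM cofactors, CREM targets, RFX and SOX relatives, general transcription factors, and MYB relatives with A-MYB targets), with examples from each list picked after their values were seen. The order of clusters, the comparison in cluster 2, the counts per cell and the motifs and promoters shown were chosen after seeing the data. So were the finer clusters, at a resolution of 0.6, that took in cells of clusters 1, 2 and 12. An order by pseudotime was tried with 9 settings, of which 2 gave the order of the classes, and was not used. Alternatives covered TMM scaling (edgeR 4.0.16), the added value, the minimum level, cell calling, filters, integration, resolution, doublets, depth, free RNA and the mix of clusters.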

Additional observations from a re-analysis of the deposited data

Results flagged for a closer look

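Fhl5 in KI was past 2-fold in opposite directions in SP-like cells and in cluster 2. Its log2 ratio of KI over WT was -1.055 in SP-like cells, -0.664 in RS-like cells and 1.208 in cluster 2. The difference between these ratios was not tested, since each genotype was 1 library. In cluster 2 the median of all genes was 1.12 on the same scale, and TMM put Fhl5 at -0.01. In SP-like cells Fhl5 lay below 10% of its free-RNA level in each library. With 10% of that profile subtracted its KI ratio there was 0.0, and it stayed past 2-fold in 9 of the 14 alternatives. The opposite directions are therefore not read as a result.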

How the results depend on the processing

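The 14 alternatives, of which 13 were planned and 1 (without clusters 3, 7 and 9, which held few UMIs or were led by mitochondrial genes) was added after seeing the data, gave 880 log2 ratios of members. Of these, 833 kept the sign and 210 left the counting interval of the reported value. All counts and ratios in cluster 2 under an alternative were likewise added after seeing the data. Of 176 counts of members past 2-fold, 13 differed from the reported count by more than 1.5 times. The number of members lower in KI in SP-like cells, reported as 1, became 0 with a minimum mean of 50 CPM, without cell calling, without integration, with doublets removed, with cells thinned to 2000 UMIs and with the cluster mix of WT. With 10% of the empty profile subtracted it stayed at 1, but the gene was Sox5 (-1.06) and Fhl5 was at 0. In RS-like cells, each count reported as 0 became 1 under some setting: higher in KO with no minimum level and with the listed genes kept for clustering, lower in KO and lower in KI with TMM (Fhl5, at -1.01 and -1.06), and higher in KI without clusters 3, 7 and 9 (Taf7l). In cluster 2 the number of members higher became 1 with TMM, from 6 in KO and from 5 in KI. TMM also turned the cluster 2 ratios of Fhl5 to -0.19 in KO and -0.006 in KI, of Sox30 to -0.23 in both, of Rfx2 to -0.48 and -0.47 and of Tcfl5 to -0.85 and -0.72. TMM centres the bulk of genes, whose median in cluster 2 was above 1 on the log2 scale; the causes of the other changes were not tested. Alternatives that formed other clusters (no integration, resolution of 0.6, listed genes kept), and the cluster mix and the exclusion of clusters, gave no value for cluster 2. No replicate could be left out, since each genotype had 1 library. Depth set the limit for Taf7l and Mybl1 in spermatids, where few UMIs were counted.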
